A study of Mus musculus with 18 samples.

Results

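The proteasome is the large protease that degrades ubiquitin-tagged proteins, and 47 of the 23038 genes in the deposited tables were taken as its subunit and assembly genes. They are the genes whose symbol starts with Psma to Psmg and a digit, together with Pomp. The immunoproteasome genes Psmb8, Psmb9 and Psmb10 were left out by the same rule and are described separately. The choice rests on gene symbols and uses no measured value, but it was made with earlier results of these data known. A symbol match also takes in Psmc3ip, which acts in meiotic recombination and is no proteasome subunit. The RNA came from haematopoietic stem cells (HSCs), sorted from bone marrow of C57BL/6 mice as Lineage-, Sca1+, cKit+, CD150+ and CD48- cells, 3000 per sample. Wild-type mice were compared with Mx1-cre; Mettl3fl/fl mice, in which the gene for the catalytic subunit of the N6-methyladenosine (m6A) methyltransferase is deleted. The treatment text of every sample, wild-type included, gives 5 injections of 10 µg pIpC and 10 days from the last one to collection, while the genotype label names pIpC only for the Mettl3-deficient mice. The interferon that pIpC induces switches on Mx1-cre, and the labels name no Cre in the wild-type mice. Polyadenylated RNA of each sample was split with an antibody against m6A into an antibody-bound (m6A-tagged) and an unbound fraction, and the input was kept, which gave 6 groups of 3 libraries. Ages are not given in the labels.

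The 26S proteasome joins a barrel-shaped 20S core, in which 7 alpha and 7 beta subunits form the rings, to a 19S cap that recognises, unfolds and feeds in the substrate. Psmb5, Psmb6 and Psmb7 carry the catalytic threonines, the Psmc genes encode the ring of ATPases that unfolds substrates, and the Psmd genes encode the scaffold, ubiquitin receptor and deubiquitinase subunits of the cap. Dedicated chaperones (the Psmg genes and Pomp for the core, Psmd5, Psmd9 and Psmd10 for the cap) guide assembly, and blood stem cells are known to be sensitive to disturbed protein turnover. The m6A mark is placed by the Mettl3 and Mettl14 complex, and its readers affect the decay and translation of the marked mRNA.

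Each value below is an RPKM (reads per kilobase of gene, scaled to library depth), the authors' mean of 3 libraries, so no spread between replicates and no p-value can be given for any difference. Library depths recovered from the values were 9.42 to 37.2 M reads. They were 12.2, 13.9 and 27.3 M in Mettl3-deficient unbound and 9.42, 22.1 and 30.1 M in Mettl3-deficient input libraries. No wild-type library lay under 24.3 M, so depth differed with genotype, and its part in the differences was not tested. Differences are log2((RPKM + 1)/(RPKM + 1)), which understates those of low genes. The 6295 genes whose 6 columns averaged 10 RPKM or more were compared, and a difference counts where it reached 2-fold. Mettl3 itself was listed at 36.4 (wild-type) and 19.6 RPKM (Mettl3-deficient) in input, a value for the whole gene that includes exons outside the deleted part. Of the genes for proteins sorted on, Kit stood at 165 and 92.4 RPKM in wild-type and Mettl3-deficient input (138 and 9.52 RPKM in unbound RNA), Ly6a (Sca1) at 118 and 348 RPKM and Slamf1 (CD150) at 24.2 and 37.8 RPKM in input. Cd48, the marker sorted against, stood at 15.5 and 5.54 RPKM. The 7 neutrophil and promyelocyte genes listed (Ltf, Camp, Ngp, S100a8, S100a9, Elane and Mpo) were all present in every column. They summed to 5983 to 8644 RPKM in the wild-type fractions and 860 to 1605 RPKM in the Mettl3-deficient ones. None of the 7 was at 0, and their part in the genotype differences given here was not tested. In such bulk RNA, fewer cells of a type and less RNA per cell cannot be told apart.

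Of the 47 genes, 45 passed 10 RPKM, and most of them were abundant. Psma7, an alpha-ring subunit, stood at 682, 1241 and 337 RPKM in wild-type input, unbound and m6A-tagged RNA, and at 666, 1579.7 and 584 RPKM in the Mettl3-deficient fractions. It was the highest alpha gene in 5 of the 6 columns, the exception being wild-type m6A-tagged RNA, where Psma6 stood at 498 RPKM. Psma3, another alpha subunit, stood at 57.5 RPKM in wild-type input, 11.9-fold under Psma7, although each ring holds 1 copy of either. In the beta ring the lowest gene was Psmb7, at 58.8 in wild-type against 47.6 RPKM in Mettl3-deficient input. The highest beta gene was Psmb6 in wild-type input (382 RPKM) and Psmb4 in Mettl3-deficient input (425 RPKM). The 6 ATPase genes lay closer together, from 137 RPKM for Psmc6 to 313 RPKM for Psmc3 in wild-type input, a 2.28-fold range. The 11 other cap subunits ran from 23.4 RPKM for Psmd11 to 206 RPKM for Psmd7, which encodes the partner of the deubiquitinase Psmd14. On this per-length scale the highest and lowest of these 11 differed 8.82-fold, so in wild-type input levels were more even among the ATPase genes. This did not hold in the Mettl3-deficient columns, where the core assembly genes were more even. The ATPase range there was 2.63-fold in input, 9.26-fold in unbound and 3.93-fold in m6A-tagged RNA. For the core assembly genes it was 2.12-fold, 2.53-fold and 2.17-fold.

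**Figure D1:**
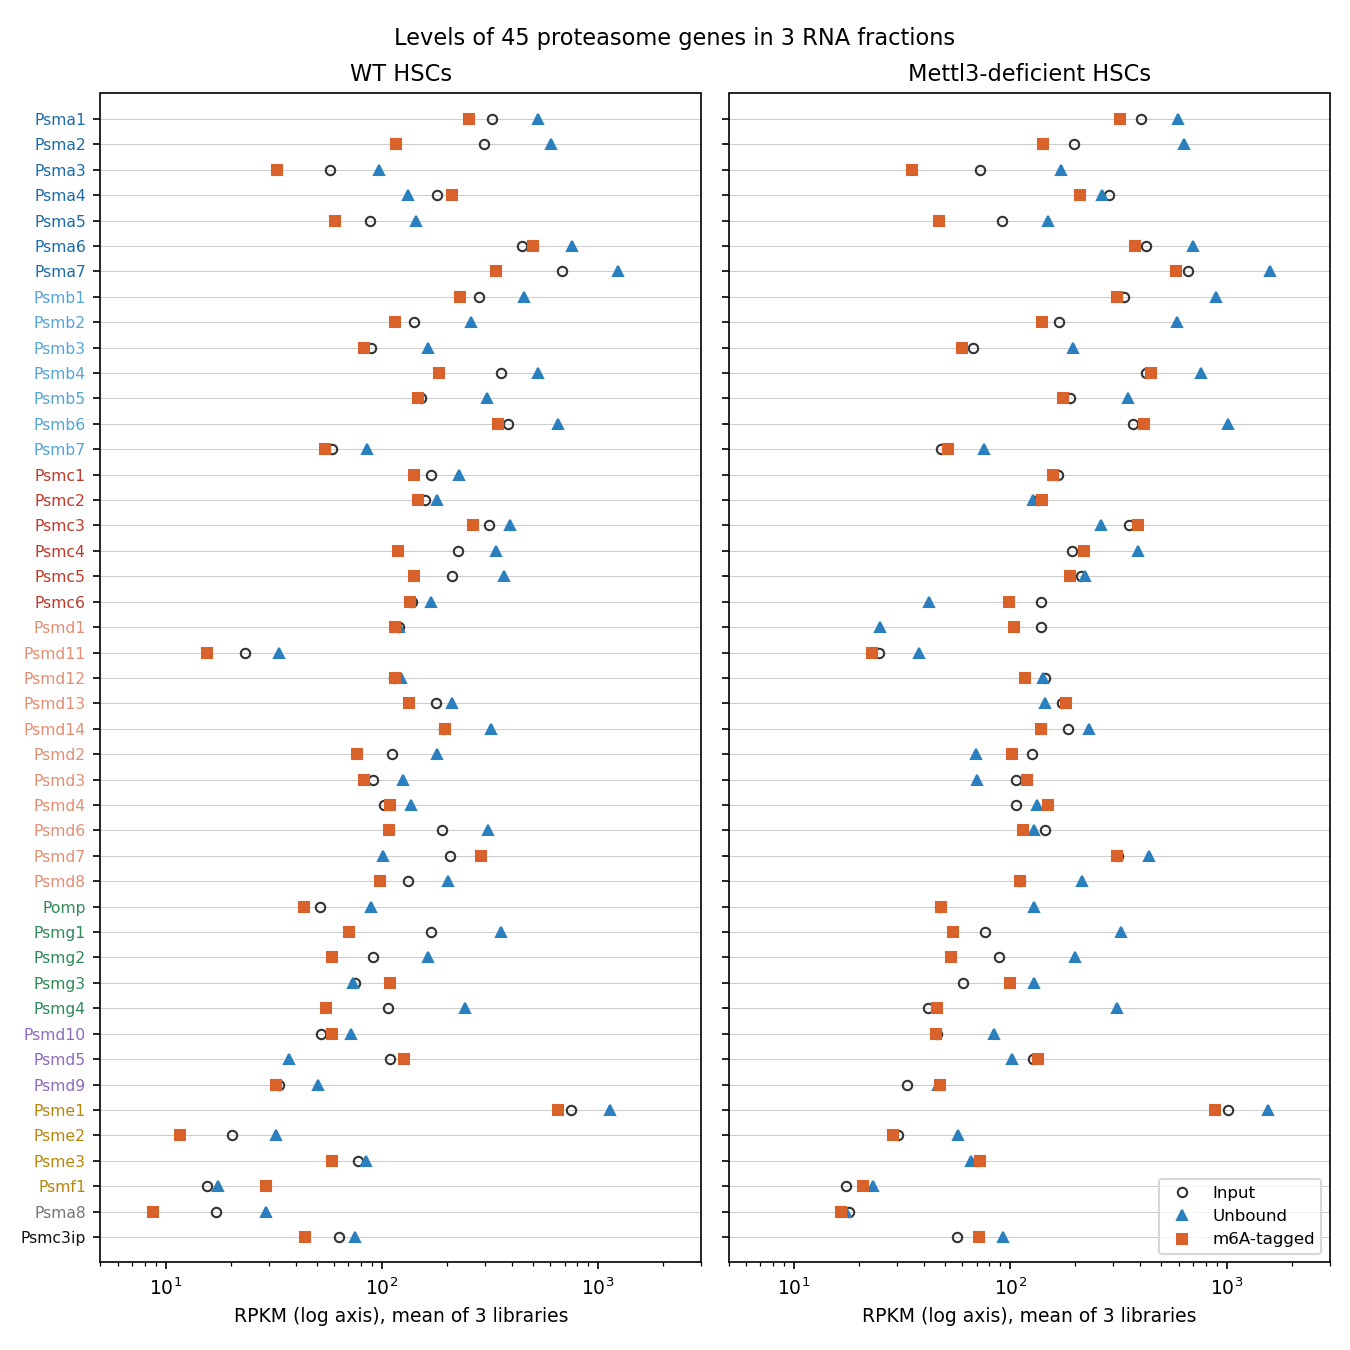
RPKM (log axis, authors' mean of 3 libraries) of the 45 compared genes in input (open circles), unbound (triangles) and m6A-tagged RNA (squares) of wild-type (left) and Mettl3-deficient HSCs (right). Gene names are coloured dark and light blue for alpha and beta subunits, dark and light red for ATPase and other cap subunits, green and purple for core and cap assembly factors, ochre for activators and the inhibitor, grey for Psma8 and black for Psmc3ip. Triangles lie right of circles for 41 genes in wild-type and 31 genes in Mettl3-deficient cells.

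Among the activators, Psme1, which forms with Psme2 the PA28 ring that opens the core without ATP, was the highest gene of all 47 in input, at 746 in wild-type against 1017 RPKM in Mettl3-deficient cells. Psme2 stood at 20.2 and 30.3 RPKM. Psme3, a nuclear activator of the same family, stood at 77.6 and 70.6 RPKM, and the inhibitor gene Psmf1 at 15.5 and 17.3 RPKM. The activator gene Psme4 was low, between 0.623 and 1.90 RPKM over the 6 columns, and was not compared. Psmb11, the thymus-specific beta subunit, had no read in any library and holds only the small value that the tables add to every gene. Psma8, the testis form of Psma7, stood at 8.78 to 29.0 RPKM. Its sequence is close to that of Psma7, so some of these reads may belong to either gene. RefSeq, on the same build (mm10, GRCm38), lists 6 pseudogenes of Psma5, Psmb5, Psmb6 and Psmb7 and a second Psme2 gene, Psme2b. Reads of a gene and its copy may have been split between them, so the levels of Psma5, Psmb5, Psmb6, Psmb7 and Psme2 are uncertain.

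All 47 genes had an entry in the RefSeq table, and 39 had a promoter window there, 250 bases before to 50 bases after a transcript start (GRCm38.p6). Proteasome genes are known to be activated together by NFE2L1 and NFE2L2 through the antioxidant response element, when the protease is inhibited. On both strands, TGACNNNGC occurred in 6 of the 42 windows of these 39 genes (14.3%), against 12.4% of all 32851 windows. The genes were Psmb5, Psmb6, Psmc6, Psmd9, Psmd12 and Psme4. The NF-Y box CCAAT occurred in 14 of 42 (33.3%), against 37.4% of all windows. The palindromic core site of nuclear respiratory factor 1 (gene Nrf1), shown in capitals in the Psma2 and Psmg1 stretches, occurred in 2 of 42, those of Psma2 and Psmg1 (4.76%), against 0.971% of all windows. These 2 genes were also among those 2-fold higher in unbound than in input RNA of both genotypes, as described further on. The 2 sites were chosen for that reason after the values had been seen, with the catalytic Psmb5 for the antioxidant response element. Psmg4 reached 2-fold there too in both genotypes, and its window held no such site. Any bearing of the site on the values was not tested. Capitals mark the matched letters, and each stretch runs 5′ to 3′ on the gene's strand.
Psmb5 (chr14:54617996-54618082, minus strand, match starting 47 bases before the start): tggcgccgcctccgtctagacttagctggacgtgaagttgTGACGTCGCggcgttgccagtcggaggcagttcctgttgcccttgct
Psma2 (chr13:14613075-14613164, plus strand, match starting 127 bases before the start): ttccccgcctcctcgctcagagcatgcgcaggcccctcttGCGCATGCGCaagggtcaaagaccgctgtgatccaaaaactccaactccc
Psmg1 (chr16:95990911-95990937, minus strand, match lying after the start): gcgggccggcGCGCATGCGCtgtctgg
A match describes letters in a window and shows no binding.

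In wild-type cells the unbound fraction held relatively more RNA of nearly all proteasome genes than the input. Of 45 genes, 41 lay above 0, with a median of 0.61 on the log2 scale, against -0.05 over all 6295 genes. The 5 core assembly genes had a median of 0.84, the 7 alpha genes one of 0.74 and the 7 beta genes one of 0.77, with a range of 0.53 to 1.00. The 6 ATPase genes had a median of 0.38 and the 11 other cap genes one of 0.45. A 2-fold higher value was reached by 4 genes, against 4.61% of all genes compared, and a 2-fold lower one by 2 genes, against 25.5%. The higher genes were Psmg4 (106 in input and 243 RPKM in unbound), Psmg1 (169 and 356 RPKM), Psma2 (298 and 607 RPKM) and the catalytic Psmb5 (152 and 305 RPKM). None of the 4 reached 2-fold under upper-quartile scaling of the columns. Psmg1 and Psmg4 encode chaperones that help to build the alpha ring. The 2 lower genes were Psmd5, a chaperone of the cap's ATPases, at 109 in input and 37.0 RPKM in unbound, and Psmd7, at 206 and 101 RPKM. Psma4 (-0.44) and Psmg3 (-0.02) were the other genes under 0.

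In Mettl3-deficient cells core and cap genes parted in the same comparison. The 14 core genes had a median log2 ratio of 1.06 of unbound over input, while the 17 cap subunits had one of -0.06, with 10 of them under 0. Over all 6295 genes it was -0.13. Under median-ratio scaling these 3 medians were 1.23, 0.10 and 0.03, so the sign of the cap median depends on the scaling. In wild-type cells the medians of core and cap were 0.75 and 0.43. The 17 cap subunits are Psmc and Psmd genes only. The cap subunit genes Adrm1 and Shfm1 fall outside the symbol rule. In Mettl3-deficient unbound over input they stood at 0.56 and 2.03, both above the cap median. A 2-fold higher unbound value was reached by 13 of the 45 genes, against 18.5% of all genes, and all but 1 of the 13 were core subunits or core assembly factors. The exception was the ATPase gene Psmc4, at 193 in input and 391 RPKM in unbound. Psmg4 stood at 41.7 in input and 312 RPKM in unbound RNA, 7.34-fold higher, Psmg1 at 76.0 and 326 RPKM, 4.24-fold higher, and the beta gene Psmb2 at 167 and 587 RPKM, 3.49-fold higher. Psma2 (3.19-fold), Psmb3 (2.87-fold), Psmb6 (2.75-fold), Pomp (2.69-fold), Psmb1 (2.66-fold), Psma7 (2.37-fold), Psma3 (2.35-fold), Psmg2 (2.24-fold) and Psmg3 (2.12-fold) were the others. Under upper-quartile scaling 8 of the 13 kept a 2-fold value, namely Psma2, Psmb1, Psmb2, Psmb3, Psmb6, Psmg1, Psmg4 and Pomp.

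Of the cap genes, 2 were 2-fold lower in Mettl3-deficient unbound RNA than in input, against 29.5% of all genes. Psmd1, the largest scaffold subunit of the cap, stood at 139 in input and 25.1 RPKM in unbound RNA, 5.36-fold lower. The ATPase gene Psmc6 stood at 138 and 42.3 RPKM, 3.22-fold lower. The scaffold gene Psmd2 stood at 125 and 69.4 RPKM, Psmd3 at 107 and 70.3 RPKM and Psmc3 at 354 and 264 RPKM, none of them past 2-fold. In wild-type cells Psmd1 stood at 120.4 in input and 120.7 RPKM in unbound, and Psmc6 at 137 and 168 RPKM.

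**Figure D2:**
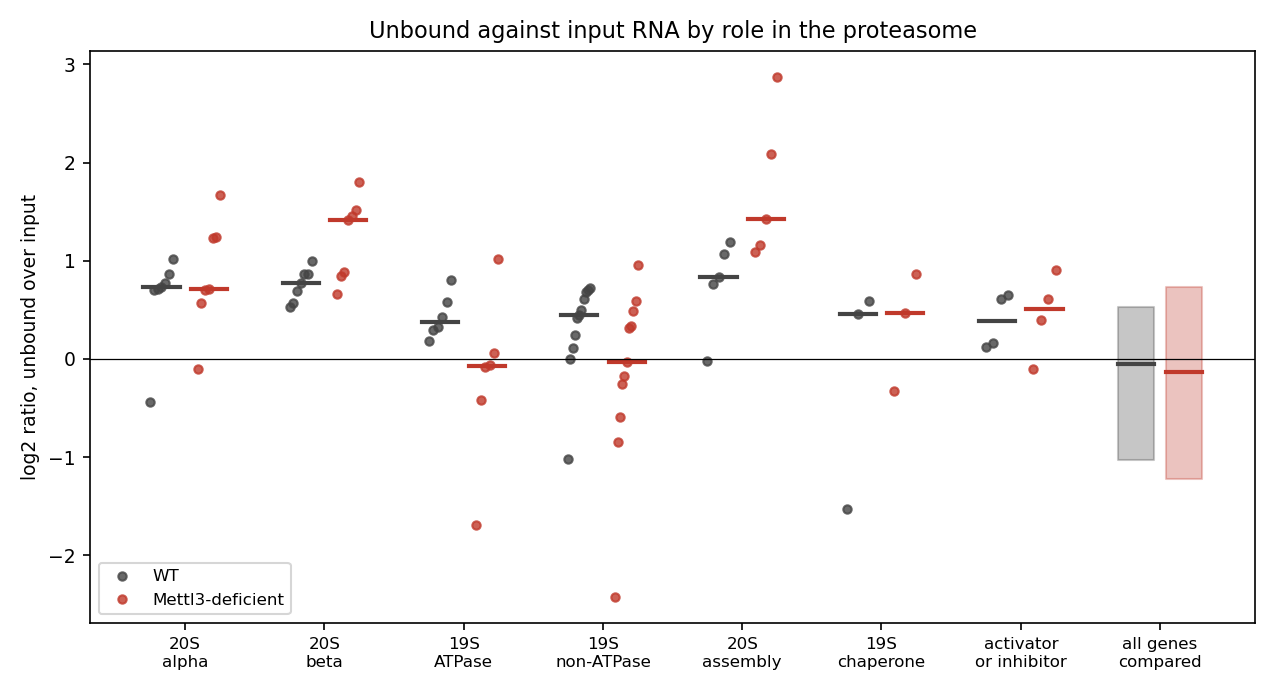
Log2 ratio of unbound over input RNA for each compared gene, by role, in wild-type (grey) and Mettl3-deficient HSCs (red). Bars are medians, and the boxes at the right show the quartiles of all 6295 genes compared. The medians of the ATPase and other cap genes lie at 0.38 and 0.45 in wild-type and at -0.07 and -0.03 in Mettl3-deficient cells.

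The same split shows in the share of each column, a quantity that does not depend on how the columns are scaled. The shares come from the same columns and genes as the ratios above and are no separate result. The 14 core genes made up 0.758% of the summed RPKM of wild-type input, 1.05% of unbound and 0.584% of m6A-tagged RNA, and 0.786%, 1.20% and 0.714% in the Mettl3-deficient fractions. The 17 cap subunits made up 0.574%, 0.621% and 0.499% in wild-type and 0.583%, 0.427% and 0.574% in Mettl3-deficient cells. The ratio of the core sum to the cap sum was 1.32 (wild-type) and 1.35 (Mettl3-deficient) in input. It was 1.69 and 2.80 in unbound RNA, in the same order, and 1.17 and 1.25 in m6A-tagged RNA. Unbound RNA of Mettl3-deficient cells thus stood apart from the other 5 columns in this ratio.

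**Figure D3:**
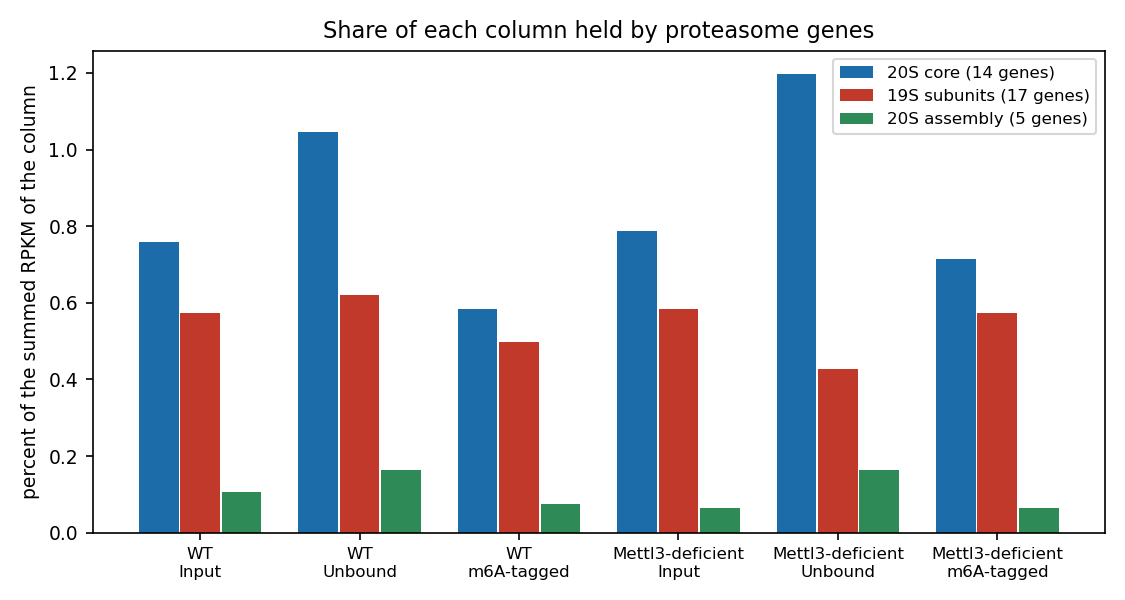
Percent of the summed RPKM of each of the 6 columns held by 20S core genes (blue), 19S cap subunits (red) and the core assembly genes (green). The core share is highest (1.20%) and the cap share lowest (0.427%) in Mettl3-deficient unbound RNA.

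Abundant genes in general stood higher in the unbound fraction, and this bears on how far proteasome genes stand out. Among genes averaging 200 RPKM or more, the wild-type unbound over input median was 0.72 for the 16 proteasome genes and 0.70 for the 497 others. In Mettl3-deficient cells it was 0.78 and 1.02, and for the 10 core genes of this level 1.06. In the 100 to 200 RPKM range, the 10 cap subunits had a median of 0.35 in wild-type cells, against 0.51 for 660 genes that are not members. In Mettl3-deficient cells these medians were -0.13 and 0.70. Over the whole range the picture was mixed. The 3 core genes of 50 to 100 RPKM had a median of 0.70, against 0.21 for 1214 others, and Psmb3, the 1 core gene of 100 to 200 RPKM, stood at 1.52. The 5 cap subunits of at least 200 RPKM had a median of 0.33, while Psmd11, the 1 cap subunit under 50 RPKM, stood at 0.59, against -0.56 for 3879 others. Psmd3, the 1 cap subunit of 50 to 100 RPKM, stood at -0.59, against 0.21 for the 1214 others. The bands were chosen after the data had been seen. Other complexes stood on either side. The Mettl3-deficient unbound over input median was 1.34 for the 83 cytosolic ribosomal protein genes compared. It was 1.51 for 85 nuclear genes of oxidative phosphorylation. For the 8 genes of the CCT chaperonin, another ATP-driven complex, it was -0.64. The span of the gene in the genome had a Spearman correlation of -0.47 with this ratio across 6287 genes and of -0.18 across the 45 proteasome genes, a description across genes that are not independent. Span is not mRNA length, which was not used here.

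Between genotypes, proteasome genes passed 2-fold most often in the unbound fraction. A 2-fold higher value in Mettl3-deficient unbound RNA was reached by 3 of the 45 and a lower one by 4, against 19.7% and 22.7% of all genes, so the share of these genes that differed lay under the background. Psmd7 stood at 101 in wild-type against 439.8 RPKM in Mettl3-deficient unbound RNA, 4.31-fold higher. Psmd5 stood at 37.0 and 101 RPKM, 2.69-fold higher, and Psmb2 at 258 and 587 RPKM, 2.27-fold higher. Psma4 (132 and 265 RPKM) and Psmb1 (454 and 892 RPKM) came just short of 2-fold. The lower genes were all cap subunits. Psmd1 stood at 121 and 25.1 RPKM, 4.66-fold lower, Psmc6 at 168 and 42.3 RPKM, 3.91-fold lower, Psmd2 at 179 and 69.4 RPKM, 2.56-fold lower, and Psmd6, a lid subunit, at 309 and 128 RPKM, 2.39-fold lower. The median was 0.30 for core and -0.52 for cap subunits, against 0.02 over all genes. Of the 17 cap subunits 12 lay under 0, and of the 14 core genes 2. Psmd7 and Psmd5 were the genes lowest in wild-type unbound against wild-type input, so the same wild-type column enters both comparisons.

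**Figure D4:**
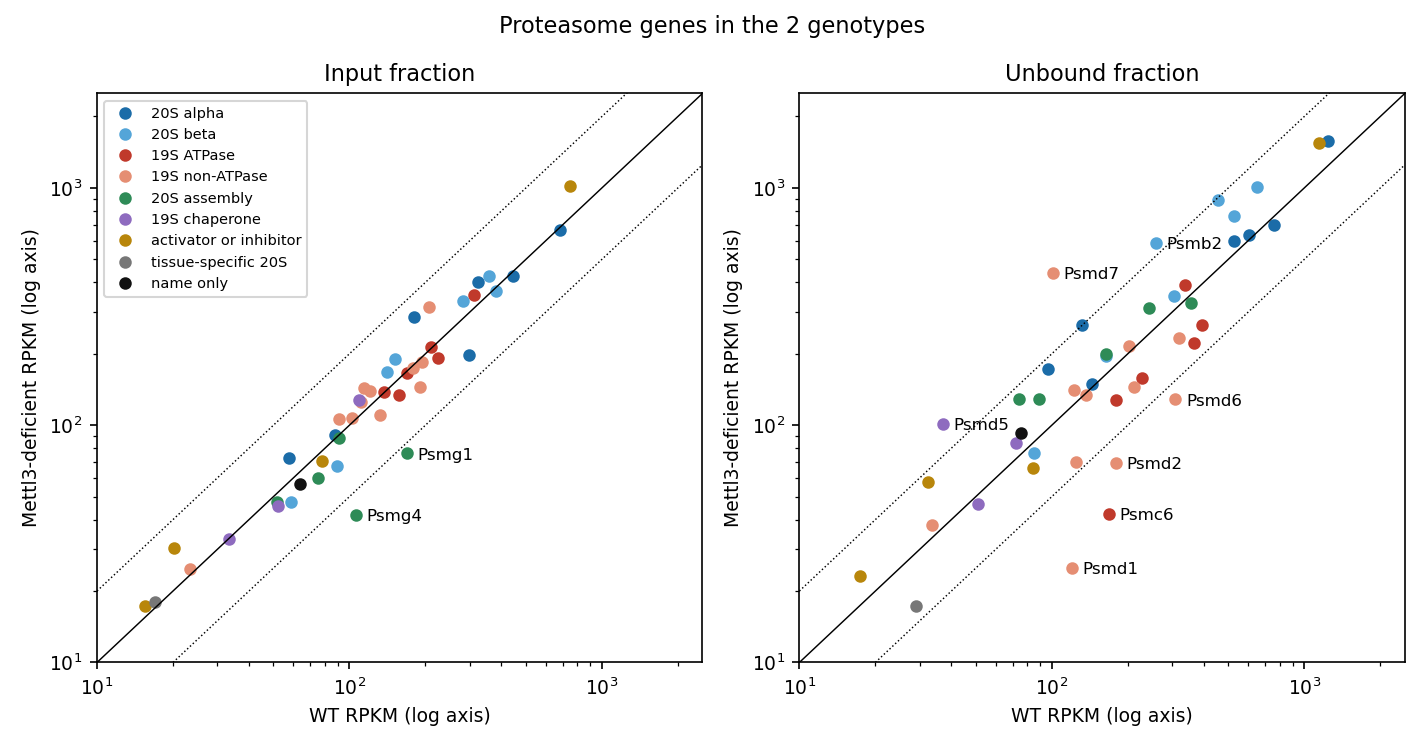
RPKM (log axes) of the 45 compared genes in wild-type (x axis) and Mettl3-deficient HSCs (y axis), in input (left) and unbound RNA (right), coloured by role. The solid line marks equal values and dotted lines 2-fold differences on plain RPKM; named genes passed 2-fold with 1 RPKM added. In input Psmg1 and Psmg4 are named, in unbound RNA Psmb2, Psmd5 and Psmd7 above and Psmc6, Psmd1, Psmd2 and Psmd6 below.

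In input RNA the proteasome genes differed little between genotypes. The median was 0.01, against -0.05 over all genes, and 23 of 45 genes lay above 0. None was 2-fold higher (2.38% of all genes were), and 2 were 2-fold lower (6.67% of all genes). Both were core assembly chaperones. Psmg4 (gene 69666, chromosome 13, 34162964 to 34178172) stood at 106 in wild-type against 41.7 RPKM in Mettl3-deficient input, 2.51-fold lower. Psmg1 (gene 56088, chromosome 16, 95979933 to 95990960) stood at 169 and 76.0 RPKM, 2.21-fold lower. All 5 core assembly genes lay under 0, as did 3413 of all 6295 genes, with Psmg2 at -0.04, Pomp at -0.13 and Psmg3 at -0.31. Psmg2 thus stood near the all-gene median. Median-ratio scaling raised the median of the 45 genes from 0.01 to 0.08, so the sign of Psmg2 depends on the scaling. In unbound RNA Psmg1 stood at 356 and 326 RPKM and Psmg4 at 243 and 312 RPKM, so neither was 2-fold apart there. The third lowest gene in input was Psma2 at -0.59 (298 and 198 RPKM). The highest genes were Psma4 at 0.66 (179 and 285 RPKM), Psmd7 at 0.60 (206 and 314 RPKM) and Psme2 at 0.56.

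The immunoproteasome genes that the rule left out, whose products replace the catalytic beta subunits under interferon, were abundant in both genotypes, and Psmb8 and Psmb10 stood above their constitutive counterparts. Psmb8, the counterpart of Psmb5, stood at 589 in wild-type against 1117 RPKM in Mettl3-deficient input, a log2 ratio of 0.92. Psmb9, the counterpart of Psmb6, stood at 346 and 470.4 RPKM, and Psmb10, the counterpart of Psmb7, at 203 and 206 RPKM. Psmb9 stood below Psmb6 in wild-type and above it in Mettl3-deficient input. Psmb5 itself stood at 152 and 190 RPKM, Psmb6 at 382 and 368 RPKM and Psmb7 at 58.8 and 47.6 RPKM. Of the 6 interferon response genes listed, 4 were compared. Their median between the inputs was 0.69, against -0.05 over all genes, all 4 lying above 0, with Irf7 at 23.5 and 61.5 RPKM. The list summed to 292 in wild-type against 435 RPKM in Mettl3-deficient input, and its part in the values of Psmb8 and Psme1 was not tested.

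The m6A-tagged fraction held relatively less RNA of proteasome genes than the input in wild-type cells. Of 45 genes 35 lay under 0, with a median of -0.27, against 0.06 over all genes. A 2-fold lower value was reached by 3 genes, against 5.23% of all genes, and a 2-fold higher one by 0, against 3.69%. Psma2 stood at 298 in input against 117 RPKM in m6A-tagged RNA, 2.54-fold lower. Psmg1 stood at 169 and 70.6 RPKM, 2.38-fold lower, and Psma7 at 682 and 337 RPKM, 2.02-fold lower. Psmb4 (-0.96), Psmg4 (-0.93) and Psmc4 (-0.91) came next. The highest were Psmf1 at 0.88 (15.5 and 29.2 RPKM), Psmg3 at 0.54 (74.8 and 109 RPKM) and Psmd7 at 0.48 (206 and 288 RPKM). Among genes of at least 200 RPKM the median was -0.26 for the 16 proteasome genes and also -0.26 for the other 497, while at lower levels proteasome genes lay under the others. The medians were -0.27 and -0.13 at 100 to 200 RPKM (15 and 660 genes), -0.24 and -0.05 at 50 to 100 RPKM (9 and 1214 genes) and -0.57 and 0.15 at 10 to 50 RPKM (5 and 3879 genes).

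In Mettl3-deficient cells the same comparison gave a median of -0.11, against 0.12 over all genes, with 27 of 45 genes under 0. Only Psma3 was 2-fold lower (72.6 in input against 35.0 RPKM in m6A-tagged RNA, 2.04-fold), against 1.45% of all genes, and 0 genes were 2-fold higher, against 1.37%. All 7 alpha genes lay under 0, with a median of -0.43, and Psma5 at -0.95. Psmg2 stood at -0.73. The highest were Psmg3 at 0.72 (60.1 and 99.6 RPKM), Psmd9 at 0.50 and Psmd4, the ubiquitin receptor, at 0.48.

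The genotype difference of the m6A-tagged over input ratio had a median of 0.22, against 0.04 over all genes. For 3 of 45 genes it was 2-fold higher in Mettl3-deficient cells (7.31% over all genes), and 2-fold lower for 0, against 2.91%. The 3 genes were Psmc4 at 1.10, Psmg4 at 1.06 and Psmb4 at 1.04, and none of them reached 2-fold under upper-quartile scaling. Their wild-type m6A-tagged values stood 1.88-fold to 1.94-fold under input, and their Mettl3-deficient ones 1.06-fold to 1.14-fold above. For Psmb4 the inputs were 356 and 425 RPKM and the m6A-tagged values 183 and 449 RPKM in wild-type and Mettl3-deficient cells. The lowest were Psma4 at -0.67, Psmf1 at -0.62 and Psmd7 at -0.50. In m6A-tagged RNA alone, Psmb4 (2.44-fold) and Psme2 (11.7 and 28.6 RPKM, 2.34-fold) were 2-fold higher with Mettl3 deleted, as were 6.02% of all genes, and 0 genes were 2-fold lower, against 7.15%.

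Set against the unbound fraction, the m6A-tagged fraction of wild-type cells held less RNA of 40 of the 45 genes, with a median of -0.92, against 0.12 over all genes. A 2-fold lower value was reached by 20 genes, against 19.3% of all genes, and a 2-fold higher one by 2, against 31.5%. The lower genes were led by Psma2 (607 in unbound against 117 RPKM in m6A-tagged RNA, 5.16-fold), Psmg1 (356 and 70.6 RPKM, 4.99-fold), Psmg4 (243 and 55.4 RPKM, 4.33-fold) and Psma7 (3.67-fold). Psma8, Psma3, Psmb4, Psmd6, Psmc4, Psmg2, Psme2, Psmc5, Psma5, Psmd2, Psmb2, Psmd11, Psma1, Psmb5, Psmd8 and Pomp were 2.01-fold to 3.06-fold lower. Under upper-quartile scaling 13 of the 45 genes were 2-fold lower. The 2 higher genes were Psmd5 (37.0 and 126 RPKM, 3.34-fold) and Psmd7 (101 and 288 RPKM, 2.83-fold). Much of the gap to all genes was shared by other abundant genes. From 200 RPKM up, the medians were -1.01 for proteasome genes and -0.91 for others, with 50.0% and 44.9% 2-fold lower. At 100 to 200 RPKM they were -0.70 and -0.63. The gap was wider at lower levels, with -0.63 and -0.25 at 50 to 100 RPKM and -1.07 and 0.61 at 10 to 50 RPKM.

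In Mettl3-deficient cells 12 genes were 2-fold lower in m6A-tagged than in unbound RNA, against 16.9% of all genes, and 2 were higher, against 33.7%. All 12 were core subunits or core assembly factors, led by Psmg4 (312 and 46.0 RPKM, 6.67-fold), Psmg1 (326 and 54.1 RPKM, 5.93-fold), Psma3 (4.80-fold), Psma2 (4.44-fold) and Psmb2 (4.17-fold). Psmg2, Psmb3, Psma5, Psmb1, Psma7, Pomp and Psmb6 were 2.45-fold to 3.71-fold lower. Under median-ratio scaling 22 genes were 2-fold lower, and these took in the cap subunits Psmc4, Psmd8 and Psmd14, the cap chaperone Psmd10 and both Psme1 and Psme2. The 2 higher genes were cap subunits, Psmd1 (25.1 and 104 RPKM, 4.03-fold) and Psmc6 (42.3 and 98.8 RPKM, 2.31-fold), of which Psmc6 fell short under that scaling, at 0.92. The medians were -1.36 for core and -0.0042 for cap subunits, against 0.33 over all genes. From 200 RPKM up, 31.2% of proteasome genes and 53.3% of others were 2-fold lower, with medians of -0.86 and -1.07. The core genes of this level had a median of -1.15. At 100 to 200 RPKM the shares lower were 26.7% and 35.5%, at 50 to 100 RPKM 33.3% and 19.9%, and at 10 to 50 RPKM 0.0% and 7.97%.

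Between genotypes this ratio was 2-fold higher in Mettl3-deficient cells for 8 genes (23.7% over all genes) and 2-fold lower for 3, against 22.8%. Of the 8 higher genes 7 were cap subunits, Psmd1 at 2.08, Psmd2 at 1.75, Psmc6 at 1.53, Psmd6 at 1.35, Psmd3 at 1.34, Psmc5 at 1.15 and Psmc3 at 1.13, and the other was Psma8 at 1.54. The lower genes were Psmd7 at -2.00, Psmd5 at -1.34 and Psma4, just past 2-fold. The m6A-tagged values of Psmd1 were 115 in wild-type against 104 RPKM in Mettl3-deficient cells, and those of Psmd7 were 288 and 310.1 RPKM. The unbound values, given above, were the ones that differed for both genes. These ratios share the unbound columns with the comparisons above and are no separate result.

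Genes that work with the proteasome showed other patterns. Of 18 proteasome-bound and shuttle proteins listed, 15 names were in the tables and 11 were compared. All 11 lay under 0 between the inputs, as did 3413 of all 6295 genes, and their median was -0.39, against -0.05 over all genes. The shuttle gene Rad23b (29.4 in wild-type against 11.1 RPKM in Mettl3-deficient input) and Akirin2 (24.1 and 10.7 RPKM), whose product brings proteasomes into the nucleus, were 2-fold lower, against 6.67% of all genes. Shfm1, which encodes the small cap subunit also called Sem1, stood nearer the core than the cap genes, with a log2 ratio of 2.03, at 184 RPKM in Mettl3-deficient input and 755 RPKM in unbound RNA. The ubiquitin-activating enzyme gene Uba1 stood at 186 and 144 RPKM in input and at 306 and 54.6 RPKM in unbound RNA.

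Both activators of proteasome genes were low in unbound RNA. Nfe2l2 stood at 56.9, 3.86 and 86.2 RPKM in wild-type input, unbound and m6A-tagged RNA, and at 61.1, 10.6 and 71.1 RPKM in Mettl3-deficient cells. Nfe2l1, with a mean under 10 RPKM, stood at 10.2, 0.460 and 12.0 RPKM and at 9.86, 0.983 and 13.2 RPKM. Of the 7 regulators listed 5 were compared, and their wild-type unbound over input median was -0.71, against -0.05 over all genes, with 2 of them 2-fold lower, against 25.5% of all genes and 34.9% of those of 10 to 50 RPKM that are not proteasome genes. Nrf1, nuclear respiratory factor 1, stood at 10.4 and 12.5 RPKM in the inputs. The p97 segregase gene Vcp, which extracts substrates for the proteasome, stood at 71.3 RPKM in Mettl3-deficient input and 20.5 RPKM in unbound RNA, against 59.6 and 67.7 RPKM in wild-type cells. Of 7 names on the p97 list 6 were in the tables and 5 were compared, with a median of -0.02 for Mettl3-deficient unbound over input, against -0.13 over all genes.

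Over the 6 columns, the genes outside the list most like the mean of the 14 core genes on the log2(RPKM + 1) scale were Swi5 (Pearson r 0.998), Nsmce1 (0.998), Khk (0.998), Fdx1 (0.997) and Qdpr (0.996). Of 6250 genes, 268 exceeded 0.95. With 6 columns of pooled libraries, 3 from each genotype, these values are a description only.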

How the data were processed

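The deposited values are RPKM, 1 column for each fraction in a table of each genotype, per the file headers. The submitters' processing notes name the build mm10 and the tools Picard and edgeR without roles or versions. Which aligner and counter were run is not given in the sources used here, nor is the gene model. The authors averaged 3 libraries per column after adding 1 read to each gene, as genes without reads show, and the depths were solved from low genes. The planned tests across libraries could not be run on pooled columns. Tables were joined on gene number (23038 genes) with pandas 2.3.3 and numpy 2.4.6 under Python 3.11.15. The log2 calculation was run on simulated columns with known changes and counting noise only. No spread between libraries was simulated, so that run does not bear on how reliable the 2-fold differences are. The 10 RPKM minimum, the 2-fold size and the added 1 RPKM were used before on these tables, and members and lists were chosen with earlier results of these data known. All 2-fold genes of a comparison are named, and otherwise the 3 highest and lowest. Alternatives were 2 other added values, 2 other minimums and 2 scalings. Sample spread is unknown, and counting error was not computed for the pooled values. Of the lists fixed, erythroid (3 of 5 names in the tables, 2 compared), megakaryocyte (3 compared) and B and T cell genes (0 compared) summed to 48.6, 647 and 8.90 RPKM in wild-type and 6.28, 252 and 1.01 RPKM in Mettl3-deficient input.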

Additional observations from a re-analysis of the deposited data

How the results depend on the processing

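No paired analysis was possible because each group is 1 pooled column, and for the same reason leaving out replicates and limma were not run. Of the 66 medians recomputed under 6 alternatives, 2 changed sign, both near 0. The Mettl3-deficient against wild-type input median became -0.030 at a minimum of 50 RPKM, and the genotype difference of m6A-tagged over unbound became -0.075 under median-ratio scaling. With an added 5 RPKM, the genes 2-fold lower numbered 0 in Mettl3-deficient m6A-tagged against input and 1 in wild-type unbound against input. A minimum of 50 RPKM left 1 gene 2-fold higher in Mettl3-deficient m6A-tagged RNA. Under median-ratio scaling the counts lower were 2 for Mettl3-deficient m6A-tagged against input, 22 against unbound, 1 for wild-type unbound against input and 6 for the genotype difference over unbound. The counts higher were 1 for Mettl3-deficient m6A-tagged against unbound and 5 for Mettl3-deficient against wild-type unbound. Under upper-quartile scaling the counts lower were 2 for Mettl3-deficient m6A-tagged against input and 13 for wild-type m6A-tagged against unbound, and those higher were 0 for wild-type unbound against input, 8 for Mettl3-deficient unbound against input and 0 for the genotype difference over input. The cause was not tested. The core minus cap median in Mettl3-deficient unbound over input was 1.12, and 1.09 to 1.13 with other added values or a minimum of 50 RPKM. Scaling cancels in it by construction. The members' median minus that of all genes, in wild-type unbound over input, ran from 0.17 (minimum of 50 RPKM) to 0.66. The all-gene median of this comparison was -0.05, and -0.27 with upper-quartile scaling, and that of the Mettl3-deficient one -0.13 and -0.39. Of all genes differing 2-fold, the share higher was 41.4% (30.5% under median-ratio scaling) in wild-type and 48.6% (28.2%, or 29.8% with upper-quartile factors) in Mettl3-deficient m6A-tagged against input. It was 66.7% (54.6% under median-ratio scaling) in Mettl3-deficient m6A-tagged against unbound. It was 15.3% (2.28% under upper-quartile scaling) and 38.5% (27.0%) in unbound against input, and 71.5% (54.8%) for the genotype difference over input. Of 22 shares of all genes, 14 moved over 1.5 times without a minimum and 12 with one of 50 RPKM.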
